A study of Bombyx mori with 3 samples.

Results

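The probes for fatty acid synthesis, beta-oxidation and lipases of the silkworm fat body array were chosen by wording alone. A gene probe was a member where its description named fatty acid synthase, acetyl-CoA carboxylase, an acyl-CoA protein, carnitine, an enoyl enzyme, a thiolase, a lipase, an acyltransferase, perilipin, a phosphatidyl compound or diacylglycerol. Descriptions naming desaturases, fatty-acyl reductases, succinyl enzymes or phosphatidylinositol kinases were left out. The rule found 193 probes among 23229 gene probes, and 62 of the 193 were bright enough to be tested on all 3 arrays, of 6154 probes tested in all. The rule uses no measured value, though it was written with earlier results of these data known. The wording also took in 38 probes outside lipid metabolism in the narrow sense, of which 14 were tested, such as enzymes of glycosylphosphatidylinositol anchors and phosphatidylethanolamine binding proteins. They are named as such below.

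Fatty acids are built in the cytosol by acetyl-CoA carboxylase and fatty acid synthase, are esterified to triacylglycerol by acyltransferases, and are kept in lipid droplets whose surface carries perilipins. Lipases release them again, acyl-CoA synthetases and acyl-CoA binding proteins activate and carry them, and the carnitine shuttle brings them into mitochondria. There beta-oxidation shortens the chain through the repeated action of acyl-CoA dehydrogenase, enoyl-CoA hydratase, hydroxyacyl-CoA dehydrogenase and thiolase, and peroxisomes run a related pathway for very long and branched chains. The insect fat body, which combines roles held by liver and adipose tissue in mammals, stores most of the larva's triacylglycerol.

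The phoxim RNA came from fat body of Bombyx mori larvae of strain p50, of mixed sex, fed on mulberry leaves that had been dipped in a 4 µg/mL solution of phoxim. This insecticide is an organophosphate, and organophosphates block acetylcholinesterase in the nervous system. Control larvae of the same strain and sex ate leaves treated with water. Feeding began on day 3 of the fifth instar, and fat bodies of both groups were dissected 24 h later, with 30 larvae per experiment. Each of 3 two-colour arrays carried phoxim RNA and control RNA of 1 biological replicate. Phoxim RNA was in Cy5 and control RNA in Cy3 on the arrays of replicates 1 and 3. The header of replicate 2 gives phoxim RNA as Cy3 and control RNA as Cy5, whereas the labels give phoxim RNA as Cy5 on all 3 arrays. The header was followed, so values of replicate 2 rest on it. Fat body is dissected tissue, in which fewer cells of a type and less RNA per cell cannot be told apart.

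Array ratios were compared as log2 of phoxim over control, after correction within each array, and the mean of 3 ratios was tested against 0 with limma. Of all 6154 probes, 0 passed an adjusted p of 0.05, and the smallest adjusted p was 0.28. The background, taken as the 95th percentile of blank spots, was 46.9, 307 and 31.8 in phoxim RNA of replicates 1, 2 and 3, against 188, 101 and 176 in control RNA. The dim limit thus went with the dye, and 104, 47 and 105 members exceeded it in phoxim RNA, against 72, 57 and 69 in control RNA. Fat body markers (storage proteins, hexamerins, low molecular lipoproteins and apolipophorin) were bright in both groups, with a sum over 53 probes of 515812 to 733112 in phoxim RNA, against 437304 to 634351 in control RNA. Their median log2 ratios were 0.75, -0.10 and 0.23 on the 3 arrays over the 33 of 53 probes tested. Muscle markers (titin, myosin, troponin and the like) had median log2 ratios of 2.28, 0.18 and 0.52 on the 3 arrays over the 30 of 60 probes tested, and their sum was 115887 to 187384 in phoxim RNA, against 40411 to 111353 in control RNA. Midgut markers had median log2 ratios of 0.16, -0.04 and 0.27 over the 20 of 107 probes tested, and their sum was 112968 to 165277 in phoxim RNA, against 121019 to 170464 in control RNA. No marker list had a sum at or near 0 in either group.

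None of the 62 tested lipid probes passed the test, as for the whole array (0% of 6154 probes), and the smallest adjusted p among them was 0.29 (limma, Benjamini-Hochberg over all probes tested). Without adjustment, 3 were higher and 5 lower in phoxim RNA at p under 0.05, which is 4.84% and 8.06% of the members, beside 6.13% and 4.81% of all probes. The ratio lay above 0 on all 3 arrays for 6 members (9.68%, beside 18.2% of all probes) and below 0 on all 3 arrays for 12 members (19.4%, beside 17.1%). The mean ratio was at least 2-fold higher for 4 members (6.45%, beside 4.26%) and at least 2-fold lower for 2 members (3.23%, beside 2.52%). The mean lay above 0 for 31 members (50%, beside 50.3% of all probes). Members that kept 1 sign on all arrays were thus 29% of those tested, beside 35.3% of all probes, and the differences between these shares were not tested. Over the 37 members with both channels above background on all arrays, 5 were lower on all arrays (13.5%, beside 15.4% of such probes) and 2 were lower at unadjusted p under 0.05 (5.41%, beside 4.95%). With the labelled dye order 6 members were higher (9.68%, beside 15.4% of all probes) and 5 lower (8.06%, beside 9.51%) on all arrays. Of the 12 members lower on all arrays, 8 had plain intensities in replicate 2 that ran against the corrected ratio, so their sign there rests on the correction within the array, and LOC692820 and sw18406 of the 6 higher members had such values on at least 1 array. The median log2 ratio of the members was -0.0028, beside 0.0035 over all probes, and the median SD between arrays was 0.55, beside 0.49.

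**Figure D1:**
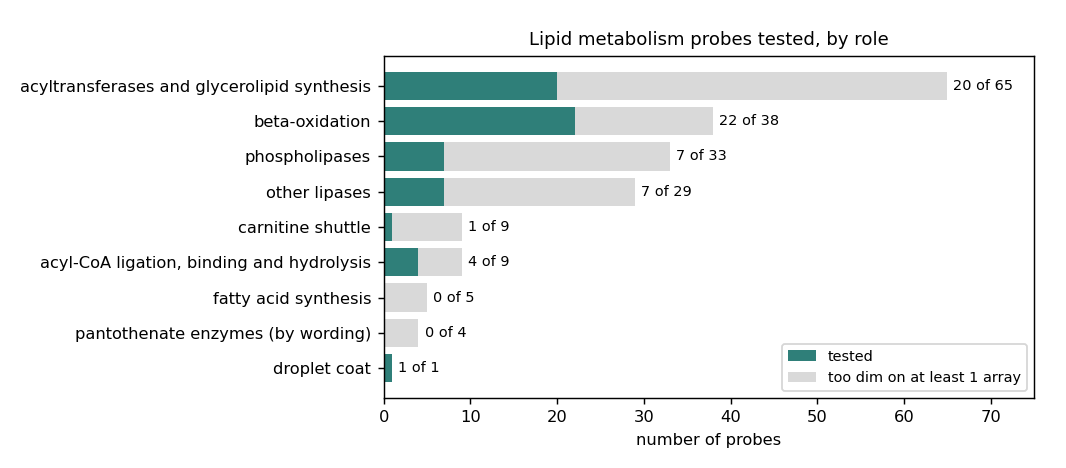
Number of probes in each role class (horizontal axis, probes), split into those bright enough to be tested on all 3 arrays and those too dim on at least 1 array. Beta-oxidation had 22 of 38 probes tested, whereas fatty acid synthesis had 0 of 5.

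Whether a member could be tested differed by role, as the plot of probes by role shows. A probe was tested where at least 1 of its 2 channels exceeded background on every array. Of the 131 members that were not, 76 had no array with a channel above background, 19 had 1 and 36 had 2. Among roles with more than 1 probe, beta-oxidation had the largest share tested, and none of the 5 probes for fatty acid synthesis was tested.

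The enzymes that build fatty acids were dim in both groups. The fatty acid synthase probe sw11549 gave intensities of 74, 89 and 24 in phoxim RNA of replicates 1, 2 and 3, against 53, 0 and 63 in control RNA. The acetyl-CoA carboxylase probe sw00421, for the enzyme that makes the malonyl-CoA used by fatty acid synthase, gave 40, 157 and 50 in phoxim RNA, against 81, 94 and 78 in control RNA. Both exceeded background in phoxim RNA of 1 array and in no control RNA. The probes were designed on sequences matched to vertebrate proteins, and their intensities cannot be read as transcript levels relative to other probes. Diacylglycerol acyltransferase 1 (sw09706 and sw19684), which makes triacylglycerol from diacylglycerol, and the hormone-sensitive lipase probes sw12578, sw19051 and sw21711 were likewise not tested.

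Long-chain acyl-CoA synthetase and carnitine palmitoyltransferase, which activate fatty acids and commit them to mitochondria, were too dim as well. The synthetase probe sw13694 gave 49, 111 and 24 in phoxim RNA, against 90, 0 and 77 in control RNA. The carnitine palmitoyltransferase I probe sw18207 gave 41, 187 and 67 in phoxim RNA, against 134, 62 and 110 in control RNA. Of the 9 probes of the carnitine shuttle, 1 was tested: the carnitine/acylcarnitine translocase-like probe sw17372, for the carrier of acylcarnitines across the inner mitochondrial membrane. Its intensities were 533, 586 and 754 in phoxim RNA, against 1513, 218 and 501 in control RNA, and its log2 ratios were -1.34, 0.60 and 0.52. Replicate 1 was lower and replicates 2 and 3 higher in phoxim RNA, and the mean of -0.07 ± 1.10 (SD, n = 3) had an adjusted p of 0.97 (limma). Intensities are given before the correction within arrays, so their plain quotient differs from the ratio.

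Acyl-CoA binding proteins carry activated fatty acids in the cytosol, and 4 of their probes were tested. ACBP was among the bright members. Its probe sw06932 gave 12411, 13677 and 21276 in phoxim RNA, against 25003, 13004 and 10376 in control RNA, with log2 ratios of -0.90, -0.10 and 0.43. A further ACBP probe, sw00813, had ratios of -0.66, -0.30 and 0.32, so that the probes differed by at most 0.24 on any array while each spanned 1.33 and 0.98 between arrays. The mean of sw06932 was -0.19 ± 0.67 (SD, n = 3; adjusted p = 0.88, limma). LOC693090, another acyl-CoA binding protein, had ratios of -0.59, 0.29 and 0.43. The ACBP-like gene (sw09826) was dimmer and varied most, with 111, 1041 and 45 in phoxim RNA, against 1154, 18 and 17 in control RNA. Its ratios of -2.62, 3.00 and 1.11 gave a mean of 0.50 ± 2.86 (SD, n = 3; adjusted p = 0.89, limma), and its control RNA exceeded background in replicate 1 alone.

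Beta-oxidation was the best covered role, with 22 of 38 probes tested. On all 3 arrays 1 probe was higher and 5 were lower in phoxim RNA, and 16 differed in sign between arrays. These are 4.55% and 22.7% of the 22, beside 18.2% and 17.1% of all probes. The class median was -0.02, and the means ran from -1.12 to 0.66. With the labelled dye order 1 probe was higher and 3 were lower on all arrays, where all probes had 15.4% and 9.51%. The class median with that order was -0.05. Descriptions of many of these probes come from vertebrate proteins of similar sequence, and roles given for those are known from vertebrates.

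Acyl-CoA dehydrogenases take the first step of each round, and their forms are named by the chain length they accept. The short-chain-like probe sw12596 had the lowest mean of the class, with intensities of 260, 173 and 137 in phoxim RNA, against 734, 159 and 587 in control RNA. Its log2 ratios were -1.23, -0.60 and -1.54, and the mean was -1.12 ± 0.48 (SD, n = 3; adjusted p = 0.35, limma). Its ratio was below 0 on every array, though its phoxim RNA did not exceed background in replicate 2, where its plain intensities ran the other way. The very-long-chain-like probe sw15130 gave 1216, 838 and 715 in phoxim RNA, against 1580, 905 and 1429 in control RNA, with ratios of -0.32, -0.64 and -1.06 and a mean of -0.67 ± 0.37 (SD, n = 3; adjusted p = 0.46, limma).

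Acade, an acyl-CoA dehydrogenase with a silkworm gene ID, was read by 2 probes that gave nearly the same ratios. Probe sw16601 gave 16899, 7460 and 11791 in phoxim RNA, against 12288, 10585 and 14438 in control RNA, and its ratios were 0.56, -0.73 and -0.87. Probe sw09449 had ratios of 0.38, -0.87 and -0.84. Both were higher in replicate 1 and lower in replicates 2 and 3, and they differed by at most 0.18 on any array while spanning 1.43 and 1.25 between arrays. The spread between arrays of this gene was thus larger than the spread between its probes. The medium-chain probes were lower in replicate 1 and higher in replicates 2 and 3. The medium-chain-like probe sw16215 gave 1733, 1776 and 2892 in phoxim RNA, against 3036, 541 and 1589 in control RNA, with ratios of -0.72, 1.07 and 0.57, and sw03693, a probe of the same similarity group, had ratios of -0.37, 0.52 and 0.85. Their means of 0.31 ± 0.93 and 0.33 ± 0.63 (SD, n = 3 each) had adjusted p of 0.82 and 0.75 (limma), and with the labelled dye order they were -0.41 and -0.0134. Differences between chain-length forms were not tested.

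In peroxisomes the first step is taken by acyl-CoA oxidase, which passes electrons to oxygen. The acyl-CoA oxidase-like probe sw14804 gave 312, 201 and 204 in phoxim RNA, against 457, 233 and 407 in control RNA. Its ratios of -0.43, -0.80 and -0.64 were the closest together of the 5 lower probes of this class, with a mean of -0.62 ± 0.19 (SD, n = 3; adjusted p = 0.47, limma). Its phoxim RNA did not exceed background in replicate 2, and with the labelled dye order its mean was -0.09. The pristanoyl-CoA oxidase-like probe sw13674, for branched chains, had ratios of 0.07, -0.57 and -0.50. The peroxisomal multifunctional enzyme-like probe sw17637 had ratios of 0.20, 0.86 and -1.12, and its control RNA exceeded background on 2 arrays.

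Enoyl-CoA hydratase adds water to the double bond made in the first step. The probe of the silkworm enoyl-CoA hydratase precursor 1, sw19440, was the brightest of the beta-oxidation class. It gave 15611, 10183 and 22920 in phoxim RNA, against 31965, 12604 and 16767 in control RNA. Its ratios of -0.92, -0.50 and -0.20 were below 0 on all arrays, with a mean of -0.54 ± 0.36 (SD, n = 3; adjusted p = 0.54, limma). Its plain intensities of replicate 3 ran the other way.

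The hydroxyacyl-CoA dehydrogenase probes, for the second oxidation, included the 1 member of the class that was higher on all arrays. LOC692820 (sw11360) gave 5755, 4668 and 8805 in phoxim RNA, against 5775, 2675 and 4278 in control RNA, with ratios of 0.08, 0.42 and 0.58 and a mean of 0.36 ± 0.26 (SD, n = 3; adjusted p = 0.65, limma). LOC732951 was read by sw19688, with ratios of -0.02, 0.92 and 1.07, and by sw10203, with -0.80, 0.68 and 0.86. Both probes of LOC732951 were highest in replicate 3 and lowest in replicate 1. The mean of sw19688 was the highest of the class at 0.66 ± 0.59 (SD, n = 3; adjusted p = 0.51, limma). The short-chain-like probe sw15014 was nearly flat, with ratios of -0.08, 0.03 and 0.09, and sw06535 had 0.33, -0.13 and 0.56.

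Thiolases split off acetyl-CoA and close the round. The long-chain 3-ketoacyl-CoA thiolase-like probe sw13503 gave 243, 251 and 132 in phoxim RNA, against 749, 162 and 351 in control RNA. Its ratios of -1.32, -0.17 and -0.84 had a mean of -0.78 ± 0.58 (SD, n = 3; adjusted p = 0.45, limma) and were below 0 on all arrays. Its phoxim RNA did not exceed background in replicate 2, where its plain intensities ran the other way. The acetyl-CoA acyltransferase 2-like probes sw12385 and sw19273 had means of -0.03 ± 0.30 and -0.31 ± 0.67 (SD, n = 3 each), with both signs among their arrays. Aact, the acetoacetyl-CoA thiolase that acts on short units, was read by probes that disagreed. Probe sw21913 had ratios of -0.35, 0.28 and -0.12, whereas sw22915 had 1.21, 0.20 and -1.08, a difference of up to 1.56 on 1 array, so no direction is given for this gene.

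**Figure D2:**
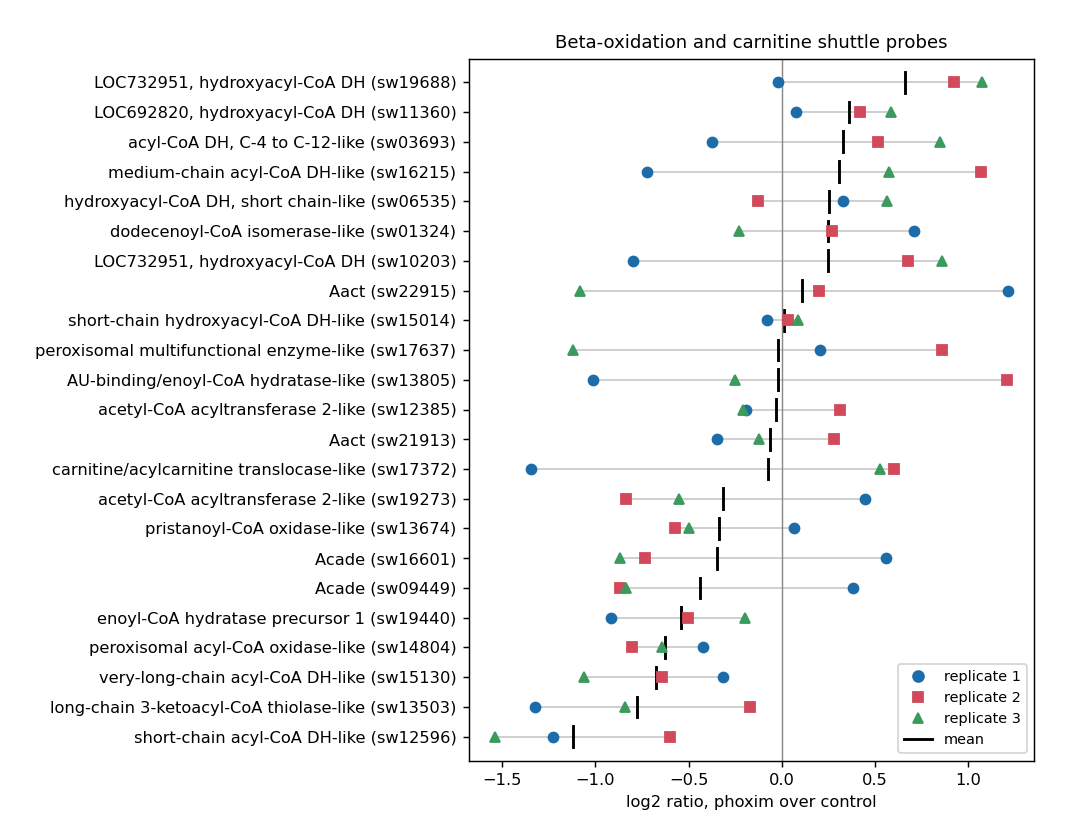
Log2 ratio of phoxim over control (horizontal axis) for the 22 tested beta-oxidation probes and the 1 tested carnitine shuttle probe, 1 row per probe, with a point per array and a black bar at the mean (DH stands for dehydrogenase). The 5 beta-oxidation probes at the bottom lie left of 0 on all 3 arrays, and only sw11360 lies right of 0 on all 3.

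Lipases other than phospholipases had a class median of 1.24 over the 7 of 29 probes tested, and their means ran from 0.10 to 1.78. With the labelled dye order that median was 0.18. Of the 7, 0 passed the adjusted test. On all 3 arrays 2 were higher in phoxim RNA (28.6%, beside 18.2% of all probes) and 0 were lower (0%, beside 17.1%). With the labelled order 0 were higher and 0 lower, where all probes had 15.4% and 9.51%. The class medians on the arrays were 0.88, 0.53 and 0.94 by the headers' dyes. Triacylglycerol lipases cleave fatty acids from stored or dietary fat.

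The triacylglycerol lipase probe sw22288 gave 2801, 726 and 3321 in phoxim RNA, against 342, 158 and 1404 in control RNA. Its log2 ratios were 2.78, 1.21 and 0.94, and the mean of 1.64 ± 0.99 (SD, n = 3) is 3.12-fold, with an adjusted p of 0.33 (limma). It was higher on every array, and both channels exceeded background on all 3. The pancreatic-like triacylglycerol lipase probe sw01791, the brightest of the class, gave 3661, 1966 and 3671 in phoxim RNA, against 611, 1195 and 1417 in control RNA. Its ratios of 2.47, 0.20 and 1.06 were all above 0 as well, with a mean of 1.24 ± 1.14 (SD, n = 3; adjusted p = 0.43, limma), and the phoxim and control intensities did not overlap. Its mean was 0.63 without replicate 1, and that of sw22288 was 1.08. LOC692912 (sw00734), another triacylglycerol lipase, gave 3733, 1179 and 1284 in phoxim RNA, against 947, 648 and 1759 in control RNA, with ratios of 1.93, 0.26 and -0.63. All 3 probes had their highest ratio in replicate 1. On that array the muscle markers had a median ratio of 2.28, the fat body markers 0.75 and the midgut markers 0.16. Hemocyte markers had 1.09 there (11 of 42 probes tested), and epidermis and trachea markers 0.34 (20 of 90). Silk gland markers had 0.33 (3 of 11) and Malpighian tubule markers -0.08 (10 of 18). The part of other tissue in the ratios of these lipase probes was not tested.

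A pair of lipases had the highest ratio in replicate 2 instead. LOC692849 (sw18759), a triacylglycerol lipase, gave 168, 8882 and 250 in phoxim RNA, against 273, 336 and 57 in control RNA. Its ratios of -0.41, 3.99 and 1.77 had the highest mean of all members, 1.78 ± 2.20 (SD, n = 3; adjusted p = 0.45, limma). LOC692513 (sw14430), lipase-1, gave 734, 6247 and 443 in phoxim RNA, against 2100, 389 and 60 in control RNA, with ratios of -1.38, 3.30 and 2.32 and a mean of 1.41 ± 2.47 (SD, n = 3; adjusted p = 0.56, limma). A lipase-1 protein has been described from the digestive juice of silkworm larvae. For both genes the phoxim and control intensities overlapped, replicate 1 was lower in phoxim RNA, and control RNA did not exceed background in replicate 3. On the array of replicate 2 phoxim RNA was in Cy3 by the header, so dye and array cannot be told apart for this value. With the labelled dye order the mean of LOC692849 was -0.88 in place of 1.78, that of lipase-1 was -0.79 in place of 1.41, and that of the ACBP-like gene was -1.50 in place of 0.50. Without replicate 2 the mean of LOC692849 was 0.68.

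The lipase member H-like probe sw08241 had ratios of 0.88, 0.53 and -0.35, and the pancreatic lipase-related protein 2-like probe sw14934 had -0.24, -0.13 and 0.66. Perilipin (LOC692833, sw00382), which coats lipid droplets and governs access of lipases, gave 14589, 8093 and 7773 in phoxim RNA, against 5133, 5952 and 9373 in control RNA. Its ratios of 1.58, 0.17 and -0.77 had a mean of 0.33 ± 1.18 (SD, n = 3; adjusted p = 0.83, limma). Perilipin ranked its arrays in the same order as LOC692912, with replicate 1 highest and replicate 3 below 0.

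**Figure D3:**
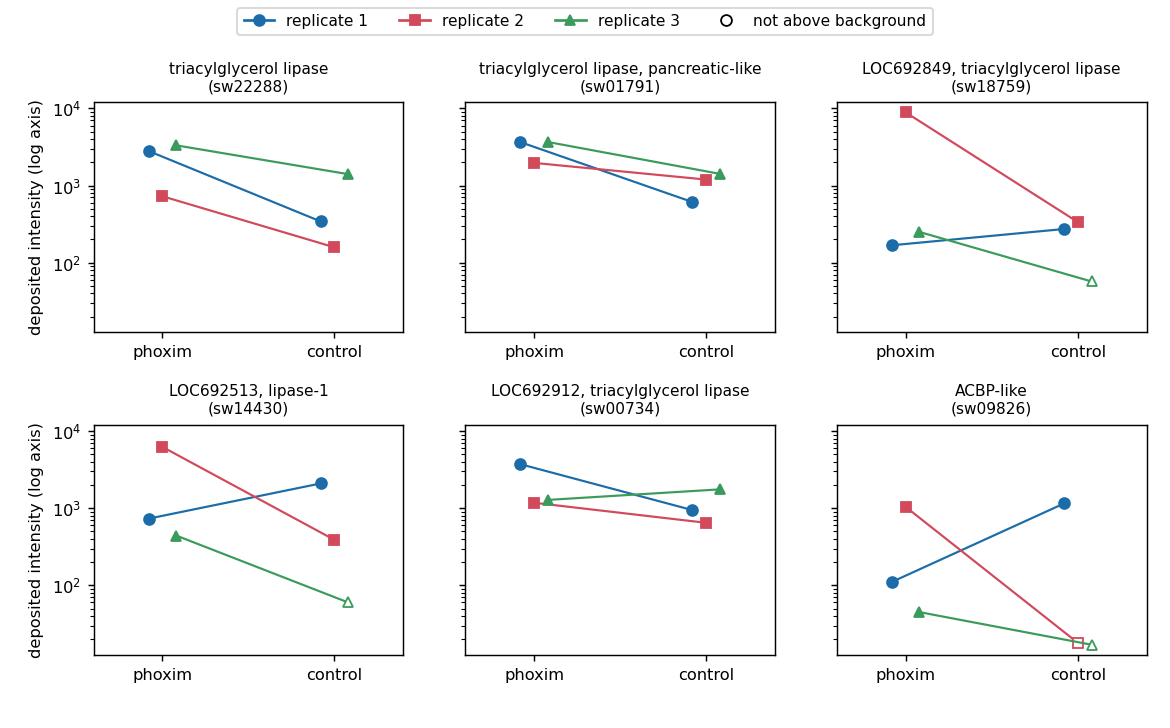
Deposited intensity on a log axis of 5 lipase probes and the ACBP-like probe in phoxim and control RNA, with a line per array joining the channels of 1 replicate, and open symbols where the channel did not exceed background. The probes sw22288 and sw01791 slope down from phoxim to control on all 3 arrays, whereas lipase-1, LOC692849 and the ACBP-like gene cross, with replicate 2 the steepest.

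Phospholipases release fatty acids or head groups from membrane lipids, and 7 of 33 probes were tested, with a class median of -0.22. Of these, 3 were higher and 3 lower in phoxim RNA on all arrays (42.9% each, beside 18.2% and 17.1% of all probes). With the labelled dye order 0 were higher and 0 lower, where all probes had 15.4% and 9.51%. The differences between these shares were not tested. LOC692950 (sw06684), a lysophospholipase that removes the remaining fatty acid from a lysophospholipid, gave 1734, 996 and 1433 in phoxim RNA, against 3519, 958 and 2827 in control RNA. Its ratios of -0.93, -0.48 and -1.20 were all below 0, with a mean of -0.87 ± 0.37 (SD, n = 3; adjusted p = 0.40, limma). Its plain intensities of replicate 2 ran the other way. The lysophospholipase 3-like probe sw00950 was dim but close together, with ratios of -0.34, -0.54 and -0.37. The third lower probe, sw02204, resembles an activating protein of phospholipase A2 and not the enzyme, and had ratios of -0.73, -0.07 and -0.998. Phospholipase A2 itself (sw00954) had both signs, with ratios of -0.04, -0.84 and 0.24.

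Of the 3 higher phospholipase probes, only sw14985 had both channels above background on all arrays. The neutral sphingomyelin phosphodiesterase 2-like probe sw20490, matched by wording, had ratios of 0.66, 1.18 and 0.09, and the lysophospholipase-like 1 probe sw14985 had 0.12, 0.23 and 0.72. The phospholipase C beta-like probe sw18406, for an enzyme of receptor signalling, had ratios of 0.02, 1.16 and 0.34. By the headers' dyes its control RNA did not exceed background on any array, which put its level in phoxim RNA at 1.08-fold that in control RNA or more. That bound sets the mean of the phoxim channel against the dimmest signal above background of the control channel. It is open to dye bias because the dyes are not balanced. It also rests on the correction within arrays and on the header of replicate 2. Plain intensities of sw18406 in replicates 1 and 3 ran the other way, and with the labelled dye order its mean was -0.27. No value of these probes passed the adjusted test.

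**Figure D4:**
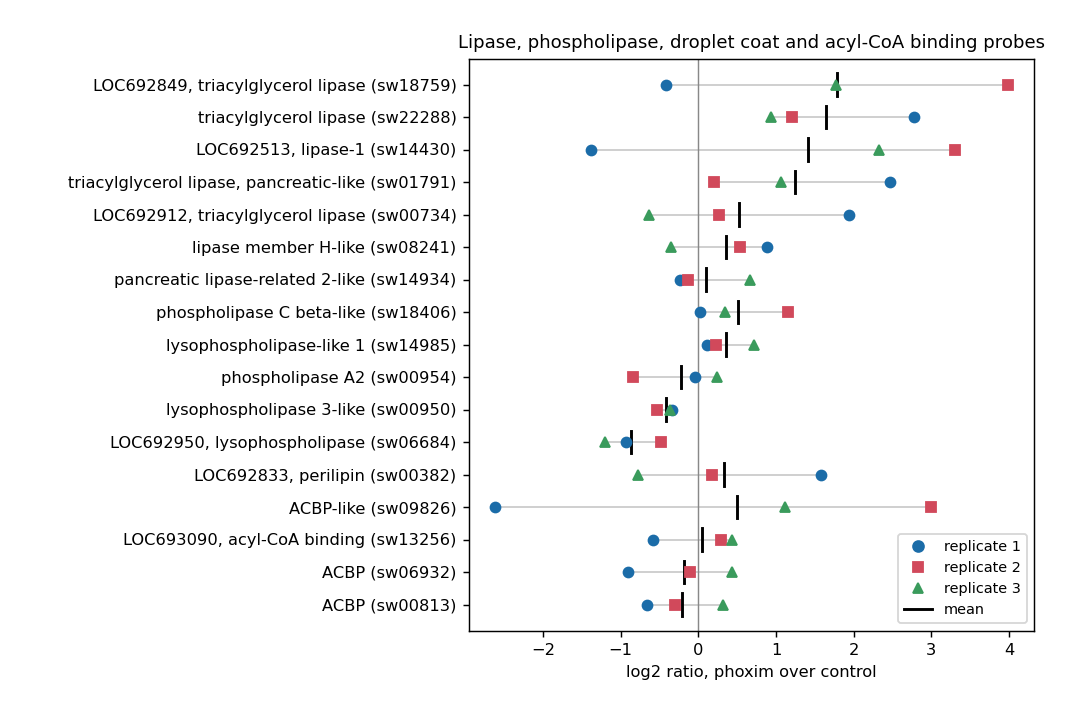
Log2 ratio of phoxim over control (horizontal axis) for the tested lipase probes, 5 phospholipase probes, perilipin and the 4 acyl-CoA binding protein probes, 1 row per probe, with a point per array and a black bar at the mean. The ACBP-like gene, lipase-1 and LOC692849 have the widest spread, from -2.62 to 3.00, from -1.38 to 3.30 and from -0.41 to 3.99.

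Acyltransferases and enzymes of glycerolipid synthesis made up 65 members, of which 20 were tested, 12 of these matched by wording only. On all arrays 0 were higher (0%, beside 18.2% of all probes) and 4 lower (20%, beside 17.1%), and the class median was -0.03. With the labelled dye order 5 were higher and 2 lower, where all probes had 15.4% and 9.51%. By the headers' dyes, the lowest mean and the smallest adjusted p of all members belonged to sw12503, described as a phosphatidylserine receptor. Proteins of that name were first taken for receptors of dying cells, and in vertebrates are now known as JMJD6, a nuclear hydroxylase, so the probe is a member by wording. It gave 568, 431 and 544 in phoxim RNA, against 2104, 724 and 1243 in control RNA, with no overlap. Its ratios of -1.71, -1.25 and -1.18 had a mean of -1.38 ± 0.29 (SD, n = 3; adjusted p = 0.29, limma). These values rest on the header of replicate 2. With the labelled dye order the ratio of that array turns above 0, and the mean was -0.55 (adjusted p = 0.92, limma).

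The other lower probes of that class were sw01198, sw02579 and LOC100101169. Probe sw01198 resembles the anchor enzyme phosphatidylinositol glycan class N and had ratios of -0.83, -0.47 and -1.68. The diacylglycerol kinase-like probe sw02579 had -0.26, -0.02 and -0.61, and LOC100101169, a phosphatidylethanolamine binding protein, had -1.47, -0.26 and -0.19. Phoxim RNA of sw01198 and sw02579 exceeded background on 2 arrays each, and control RNA of sw02579 on 1. Plain intensities ran the other way in replicate 2 for sw01198 and sw02579, and in replicates 2 and 3 for LOC100101169. A brighter phosphatidylethanolamine binding protein probe, sw22413, had 0.98, -0.77 and -0.40. The lysophosphatidic acid acyltransferase-like probe sw07822, for the step that makes phosphatidic acid, had a mean of 0.13 ± 0.34, and the phosphatidylserine synthase 1-like probe sw17189 had 0.10 ± 0.34 (SD, n = 3 each). The phosphatidylserine decarboxylase-like probe sw08964 had ratios of -0.53, 0.14 and -0.12, and the phosphatidic acid phosphatase-like probe sw00592, for the step that makes diacylglycerol, had 1.28, -0.48 and 0.05.

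With the headers' dye order the members' ratios on the arrays of replicates 2 and 3 were closer to each other than either was to replicate 1. Across the 62 probes Pearson's r was 0.63 between replicates 2 and 3 (Spearman's rho 0.52), -0.15 between 1 and 2, and -0.02 between 1 and 3. Across all 6154 probes r was 0.27, 0.03 and 0.36 for the same pairs. These are descriptions across probes, which share arrays, dyes and RNA and are not independent replicates. Over the 37 members with both channels above background on all arrays, which leave out the ACBP-like gene, lipase-1 and LOC692849, r between replicates 2 and 3 was 0.62. Replicates 2 and 3 carry their RNAs in opposite dyes by the headers, and with the labelled dye order these values turn to -0.63 over the 62 members, -0.62 over the 37 and -0.27 over all probes.

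The signs rest on the dye order of replicate 2 in the same way. By the headers, a ratio below 0 in replicate 1 and above 0 in replicates 2 and 3 was found in 13 members (21%), beside 10.6% of all probes. The opposite pattern was found in 6 members (9.68%), beside 16.6%. Over the members with both channels above background these shares were 21.6% (beside 13.9%) and 13.5% (beside 15.9%). With the labelled dye order the patterns were found in 7 members each (11.3%), beside 5.85% and 6.84% of all probes. ACBP-like, LOC693090, the translocase, both medium-chain probes and both probes of LOC732951 belonged to the 13, and both Acade probes belonged to the 6. The median ratio of the members was -0.21, -0.0018 and 0.07 on the 3 arrays, beside 0.13, -0.06 and 0.0001 over all probes.

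**Figure D5:**
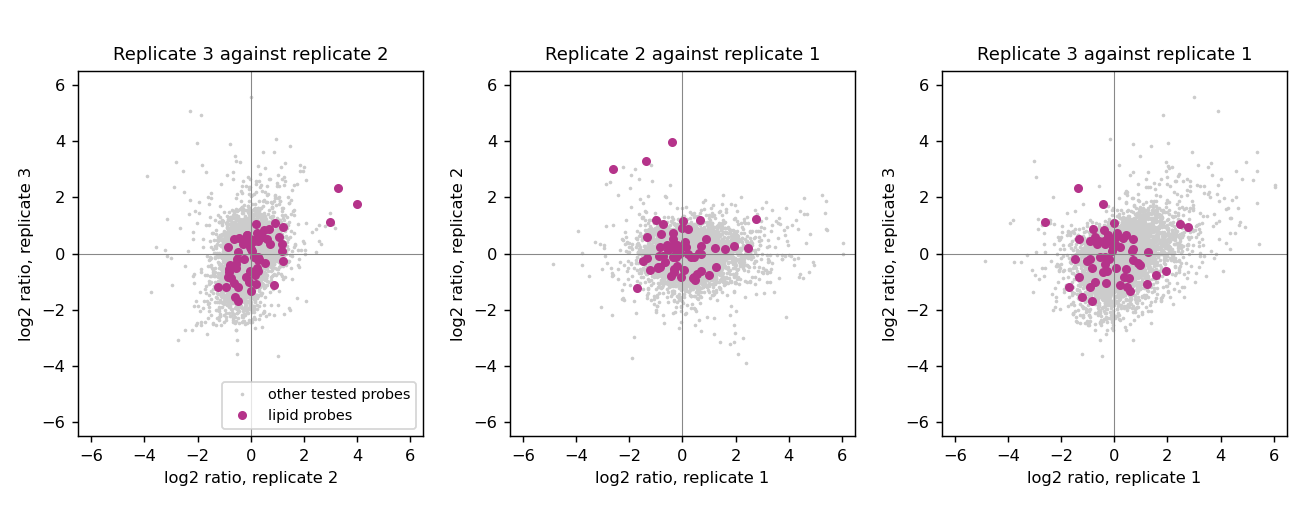
Log2 ratio of phoxim over control on 1 array against another for all 3 pairs of arrays, with the 62 tested lipid probes in colour over the other tested probes in grey. The lipid probes run along the diagonal for replicates 2 and 3 (r = 0.63 by the headers' dyes, -0.63 by the labelled ones), and 3 of them stand above 2 in replicate 2.

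Genes of the same pathways outside the wording rule were read from 17 description lists, with 89 probes of which 27 were tested. On all arrays 4 were higher (14.8%, beside 18.2% of all probes) and 1 lower (3.7%, beside 17.1%), 22 had both signs, 0 passed the adjusted test, and the median was 0.20. A fatty acid desaturase-like probe, sw11269, for an enzyme that places double bonds in fatty acids, had the highest mean, with ratios of 3.51, 1.14 and 3.09 (2.58 ± 1.26, SD, n = 3; adjusted p = 0.28, limma). Apolipophorin III (sw09945), which joins lipid-loaded lipophorin in the hemolymph, had ratios of 0.47, -1.98 and -1.88, the same signs as Acade. Its control intensity in replicate 2 was 54017, the same as that of sw13143, another probe of the lipophorin list. Saturation was counted for members only and was not tested for these spots. The mean of apolipophorin III, -1.13, was the lowest of the 7 tested probes of the lipophorin list. The means of that list ran up to 0.92 with a median of 0.32, and 1 probe was higher and 0 lower on all arrays. The AKH1 prohormone (sw09642), the precursor of an adipokinetic peptide that mobilises fat, had ratios of 1.91, -0.19 and -0.15. LOC692811, the beta subunit of the electron transfer flavoprotein that accepts electrons from acyl-CoA dehydrogenases, had -0.35, 0.32 and 0.28. No probe was tested for elongases, ATP citrate lyase, malic enzyme or glucose-6-phosphate dehydrogenase.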

How the data were processed

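Phoxim and control fat body RNA was compared on 3 two-colour arrays. RNA was T7-amplified and dye-labelled (Cy5 or Cy3) during cDNA synthesis, per the labels' protocols. The deposited intensity of both channels was used. How the arrays were scanned and background removed is not stated in the labels or headers, and blank spots near 0 and values below 0 led to the intensities being treated as already background-subtracted. The ratio that the authors deposited is phoxim over control per the file headers, and the deposited log2 values equal its logarithm to within 5e-09, with column medians of 0.01, -0.02 and 0.05. The scale is thus known. The direction is that of the headers, which for replicate 2 differ from the labels in the dyes. The normalization and centring that the authors used are not stated in any label or header. The ratios served as an alternative and differed from the recomputed ratios of tested members by a median of 0.14, 0.17 and 0.23 on the 3 arrays.

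Intensities were corrected with normexp (offset 50) and loess within arrays in limma 3.58.1 (R 4.3.3), with control spots at weight 0. The design had foreseen a background column, which was not used here. Ratios were turned to phoxim over control by the headers' dyes. With the labelled order, arrays 2 and 3 correlate at -0.27 over all probes, and with the headers' order at 0.27. A probe was tested if, on all arrays, a channel was above the 95th percentile of 382 blank spots. The two-sided test of the mean ratio against 0 used lmFit and eBayes, and p-values were adjusted over 6154 probes (Benjamini-Hochberg). Each array pairs phoxim and control RNA of the same replicate number per the labels, so the array is the block. The number of arrays limits the precision. The fit was tested on simulated data. No member spot reached 99% of its channel's maximum, the limit used for saturation.

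Members, role classes and lists were chosen with earlier results of these data known. Named members were those with 1 sign on all arrays, the brightest of each role, and every tested probe of the pathway's defining enzymes, by description. Others were chosen after their values were seen: lipase-1, the ACBP-like gene, LOC693090 and the other probes named for their role. Gene names come from the array files. Of the members, 20 carried 1 of 16 gene IDs, and all 16 matched the RefSeq gene table, which gave the symbols ACBP, Acade, Aact and AKH1. Counts by sign, class medians and correlations were also taken with the labelled dye order and, in part, the stricter dim filter, a choice made after seeing the data. Alternatives changed the dye order, background correction, normalization, dim filter, dye term, array weights, pairing, replicates and member list.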

Additional observations from a re-analysis of the deposited data

How the results depend on the processing

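Under each of the 12 other settings of the fit, 0 of all probes and 0 members passed the test, with the smallest adjusted p of a member between 0.14 and 0.88 (limma). These include separate channels with no replicate block, where the smallest adjusted p was 0.20 over all probes and 0.26 over members, so that pairing by array changed no call. Median centring instead of loess moved the members' median ratio to 0.26, and that of all probes to 0.24. Named members gave 444 values under alternatives, of which 394 had the direction reported and 50 the opposite, in 20 members. The cause of these changes was not tested.

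With the labelled dye order the mean ratio was -0.0134 for sw03693, 0.14 for sw09449, -0.21 for sw10203, -0.0083 for sw15014, -0.41 for sw16215, 0.14 for sw16601, -0.27 for sw18406, -0.88 for sw18759, 0.24 for sw19273, -0.14 for sw20490, 0.45 for sw22413 and -0.0218 for sw22915. Median centring gave 0.15 for sw06932, 0.34 for sw12385, 0.0040 for sw16601, 0.20 for sw17372, 0.25 for sw17637, 0.30 for sw21913 and 0.27 for sw22413. The authors' deposited ratios gave 0.14 for sw06932, 0.0601 for sw12385, 0.0727 for sw17637, 0.0497 for sw21913 and 0.10 for sw22413. Leaving out the background correction gave 0.0068 for sw12385, 0.0838 for sw17637 and 0.0127 for sw22413. A dye term gave 0.0561 for sw12385, 0.0948 for sw17372, 0.20 for sw17637 and 0.0215 for sw21913. Array weights gave -0.0944 for sw00382, 0.0486 for sw06932, 0.23 for sw17372 and -0.32 for sw22915. These directions are opposite to those reported.

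Leaving out 1 replicate in turn gave ranges that span 0 of -0.30 to 0.88 for sw00382, -0.19 to 1.10 for sw00734, -0.50 to 0.17 for sw06932, -0.059 to 0.77 for sw10203, -0.20 to 0.061 for sw12385, -0.19 to 0.27 for sw14934, -0.0236 to 0.0589 for sw15014, -0.0742 to 0.82 for sw16215, -0.41 to 0.56 for sw17372, -0.46 to 0.53 for sw17637, -0.23 to 0.0778 for sw21913, -0.59 to 0.29 for sw22413 and -0.44 to 0.71 for sw22915. Of means that kept their direction, those without 1 replicate ran from 0.63 to 1.76 for sw01791, from 0.68 to 2.88 for sw18759 and from 1.08 to 2.00 for sw22288. Signal over background limits what could be tested, since 131 of 193 members were too dim.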

Other observations

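Lipase-1, LOC692849 and the ACBP-like gene had like array patterns, and the probes nearest to them were read off by a rule drawn from their own values. A log2 ratio below 0 in replicate 1, above 2 in replicate 2 and above 0 in replicate 3, was met by 16 of 6154 probes (0.26%). These include the 3 genes that set the rule, so their number is no result, and none of the 3 had both channels above background on all arrays. Among the other 13 were LOC100101175 (sw19432), a trypsin-like protease with ratios of -2.25, 3.09 and 1.06, and sw06604, which resembles an intestinal mucin of the moth Trichoplusia ni and had -0.48, 2.46 and 0.04. The trypsin-like probe gave 72, 2005 and 78 in phoxim RNA, against 705, 90 and 42 in control RNA. Srp54 (sw09971), a part of the signal recognition particle, had ratios of -0.66, 2.03 and 0.13, and the phosphoserine phosphatase-like probe sw13964 had -1.13, 2.57 and 0.46. The tested midgut marker list as a whole had a median ratio of -0.04 in replicate 2. The part of midgut tissue in these values was not tested.

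Far (sw21231), the reductase that turns fatty acyl-CoA into alcohols, had an adjusted p of 0.29 (limma) and ratios of 1.59, 1.11 and 1.86. By the headers' dyes its control RNA exceeded background on 0 arrays, so its level in phoxim RNA was at least 1.68-fold that in control RNA. That bound is open to dye bias because the dyes are not balanced. It also rests on the header of replicate 2, since with the labelled dye order the ratio of that array turns below 0. LOC692832 (sw21255), described as a peroxisomal phytanoyl-CoA dioxygenase, had ratios of -0.06, -0.9997 and -1.69, with a mean of -0.92 ± 0.82 (SD, n = 3; adjusted p = 0.45, limma).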
